A study of Mus musculus with 4 samples.

Results

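Lymphatic, endocardial and venous endothelial cells are minor types among the endothelial cells of the heart, most of which line capillaries. Open chromatin was described here at 8 genes known for these minor types, chosen by name out of 21755 protein-coding genes of the GENCODE annotation of mm10. The lymphatic genes were *Prox1*, *Lyve1*, *Pdpn*, *Reln* and *Mmrn1*, and the endocardial and venous genes were *Nfatc1*, *Nr2f2* and *Cgnl1*. The question was whether these genes showed in the list of accessible regions of endothelial nuclei, and how that list differed from the one of all other heart nuclei.

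The nuclei came from whole hearts of male NuTRAP/Cdh5-Cre mice on a C57BL/6 background, aged 8 to 12 weeks, and were sorted into GFP+ (endothelial) and GFP- (non-endothelial) nuclei, all groups carrying the same alleles. The reporter labels nuclei in which the Cdh5 promoter has driven Cre, so GFP marks cells with a history of Cdh5 activity and not a given endothelial type. ATAC-Seq, in which the Tn5 transposase cuts accessible DNA, was made on 100 to 50000 nuclei per library, with 2 libraries per population. A single list of peaks (accessible regions) was called for each population from both of its libraries together, so that every value below stands for 1 list, no difference has a replicate check, and no test was made.

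The GFP- list held 78912 peaks and the GFP+ list 65008, and read counts and depth per library were not analysed here. Peaks were ranked by area, the signal summed over the length of the peak, and the rank of a peak is its percentile among the peaks of its own list, from near 0 for the smallest area to 100 for the largest. The sorted populations were described at gene starts, where a start peak is one that overlaps an annotated transcript start +/- 250 bp. The marker lists were chosen with earlier results of these data known. The pan-endothelial list includes *Cdh5*, whose promoter drove the Cre behind the sort. The counts are therefore not an independent check of the sort. Of 12 pan-endothelial genes, 12 had a start peak in the GFP+ list and 7 in the GFP- list. Of 6 fibroblast genes, 2 had one in GFP+ and 5 in GFP-, and of 5 cardiomyocyte genes 5 had one in each. The median rank of the cardiomyocyte starts was 99.8 in GFP- and 94.3 in GFP+, so that starts of contractile genes also ranked high in the endothelial list.

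Lymphatic endothelial cells form the vessels that drain fluid from tissue, and their identity is set by the transcription factor PROX1, which in the embryo is switched on in venous endothelium with the help of NR2F2 (COUP-TFII). The endocardium lines the chambers and valves, and NFATC1 is a transcription factor of its valve-forming cells. Several of these genes are also used outside the endothelium, *Prox1* in cardiomyocytes, *Pdpn* in stromal and epicardial cells, *Lyve1* in resident macrophages and *Nr2f2* in atrial cardiomyocytes and stroma. A sample of whole-heart endothelial nuclei mixes the minor types with many capillary nuclei, and fewer nuclei of a type and less opening per nucleus cannot be told apart in these lists.

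The sequences on which the comparison turns are those of peaks found in one list and not in the other, where shared means at least 1 bp of overlap with a peak of the other list. Shown for 5 genes is the highest-ranked GFP+ only peak and for *Pdpn* and *Cgnl1* the highest-ranked GFP- only peak, each by 150 bases around its summit, 5′ to 3′ on the plus strand of mm10, none of them overlapping an annotated exon. Capitals mark matches, on either strand, to any of 7 motif words. The word searched for ETS factors was CAGGAA, the word for SOX factors was CCATTGT, the word for GATA factors was AGATAA and the word for NFAT factors was TGGAAA. Nuclear receptors were represented by AGGTCA, bHLH factors by the E-box CAGCTG and AP-1 by the word TGANTCA. Neighbouring words may share or touch letters, and a match is only a description of the letters.
Prox1 upstream, GFP+ only, chr1:190181966-190182115: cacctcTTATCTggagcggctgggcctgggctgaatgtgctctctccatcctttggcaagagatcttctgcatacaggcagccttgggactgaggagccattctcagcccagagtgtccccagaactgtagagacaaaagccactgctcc
Lyve1 upstream, GFP+ only, chr7:110894207-110894356: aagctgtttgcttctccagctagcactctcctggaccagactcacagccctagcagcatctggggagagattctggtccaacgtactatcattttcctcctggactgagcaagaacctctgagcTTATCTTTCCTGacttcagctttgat
Reln intron, GFP+ only, chr5:22302366-22302515: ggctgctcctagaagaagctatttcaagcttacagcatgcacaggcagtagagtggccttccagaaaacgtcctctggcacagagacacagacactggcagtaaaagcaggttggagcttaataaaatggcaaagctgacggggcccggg
Mmrn1 intron, GFP+ only, chr6:60950554-60950703: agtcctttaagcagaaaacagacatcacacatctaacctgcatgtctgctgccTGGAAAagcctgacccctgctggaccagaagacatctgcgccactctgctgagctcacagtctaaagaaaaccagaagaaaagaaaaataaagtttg
Cgnl1 downstream, GFP+ only, chr9:71606896-71607045: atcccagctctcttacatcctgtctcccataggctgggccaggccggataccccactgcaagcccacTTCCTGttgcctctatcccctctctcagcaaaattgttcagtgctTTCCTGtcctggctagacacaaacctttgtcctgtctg
Cgnl1 intron, GFP- only, chr9:71660620-71660769: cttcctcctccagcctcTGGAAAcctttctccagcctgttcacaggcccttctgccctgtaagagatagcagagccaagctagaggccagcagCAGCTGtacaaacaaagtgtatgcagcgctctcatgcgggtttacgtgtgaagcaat
Pdpn intron, GFP- only, chr4:143278505-143278654: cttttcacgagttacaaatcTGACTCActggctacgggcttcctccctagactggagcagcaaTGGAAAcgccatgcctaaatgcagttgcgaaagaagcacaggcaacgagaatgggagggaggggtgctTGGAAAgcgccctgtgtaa

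At the *Cgnl1* locus, the GFP+ only window, which lies downstream of the gene and nearer to the start of *Myzap*, held 2 ETS words, and the GFP- only window inside the gene held an NFAT word and an E-box. The *Lyve1* window held a GATA and an ETS word next to each other, the *Prox1* window a GATA word, the *Mmrn1* window an NFAT word and the *Reln* window none of the 7. The *Pdpn* window, from the gene that had GFP- only peaks and no GFP+ only peak, held an AP-1 and 2 NFAT words.

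*Pdpn* and *Reln* were the only members with a start peak in a single list, in opposite directions, and the 250 bases before their starts are therefore given too, as RefSeq has them for GRCm38.p6, in the direction of transcription (minus strand). The *Reln* stretch held 37 CpG dinucleotides at a GC content of 80%, and the *Pdpn* stretch 2 at 43.2%. Over 32851 RefSeq promoter entries the median was 6 CpG, with quartiles of 2 and 16. Of the 7 words, *Pdpn* had AGGTCA, present on either strand in 14.0% of all promoter entries, and *Reln* had none.
Reln promoter, chr5:22344706-22344955: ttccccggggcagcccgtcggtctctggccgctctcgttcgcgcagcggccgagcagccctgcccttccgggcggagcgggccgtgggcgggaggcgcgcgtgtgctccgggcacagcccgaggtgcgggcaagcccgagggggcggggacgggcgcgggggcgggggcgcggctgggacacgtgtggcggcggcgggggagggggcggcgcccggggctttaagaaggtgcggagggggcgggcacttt
Pdpn promoter, chr4:143299565-143299814: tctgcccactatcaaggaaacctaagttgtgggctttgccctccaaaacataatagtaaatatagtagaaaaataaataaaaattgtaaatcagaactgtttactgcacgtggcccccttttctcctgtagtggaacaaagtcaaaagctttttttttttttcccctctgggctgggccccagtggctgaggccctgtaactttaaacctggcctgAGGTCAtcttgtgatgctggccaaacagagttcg

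At the transcript starts, 6 of the 8 genes had a peak in the GFP- list and 6 in the GFP+ list, where 61.8% and 59.8% of all protein-coding genes had one. *Reln* had a start peak in GFP+ alone, as did 0.915% of all genes. *Pdpn* had one in GFP- alone, as did 2.95% of all genes. *Mmrn1* had none in either list, as did 37.3% of all genes. For each gene the highest-ranked start peak was then compared between lists, with rank 0 where a list had none, and a difference over 20 points was counted as a call. *Reln* was thus higher in GFP+ (1 of 8, against 1.22% of all genes) and *Pdpn* lower (1 of 8, against 4.60%). Over the 7 genes with any start peak the median difference was -6.61 points, beside -0.814 over the 13643 protein-coding genes with one. This median was the value of *Nfatc1*, whose highest peaks lay at different starts in the lists. Compared at the same start, *Nfatc1* differed by -8.27 points at its 5′ end and by 0.641 at the start 4898 bp inward.

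**Figure D1:**
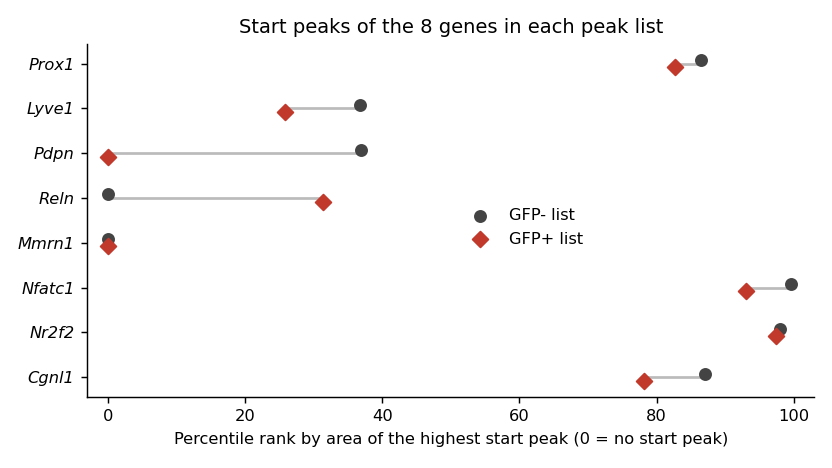
Percentile rank by area (x axis, 0 to 100) of the highest start peak of each gene (y axis) in the GFP- list (grey circles) and the GFP+ list (red diamonds), with 0 for no start peak. Reln lies at 31.4 in GFP+ and 0 in GFP-, Pdpn at 37.0 in GFP- and 0 in GFP+, and for the 5 genes with a start peak in both lists the GFP- circle lies to the right of the GFP+ diamond, by 0.653 points at Nr2f2 and 10.9 at Lyve1. The circle and diamond of Nfatc1 stand for different starts of the gene.

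*Prox1* (ENSMUSG00000010175.13, chr1:190118035-190170714, minus strand) was open at its start in both populations. Its start peak ranked 86.5 in GFP- (1306 bp) and 82.7 in GFP+ (1298 bp), the outlines differing only at one end, and at the second start, 1315 bp into the gene, the ranks were 66.3 and 58.9. The gene with 50 kb on each side, here called a locus, held 14 peaks in each list, of which 3 were found only in GFP- and 1 only in GFP+. The GFP+ only peak (190181681-190182263), whose sequence is given above, lay 11.3 kb upstream and ranked 59.8, while the 3 GFP- only peaks ranked from 9.82 to 25.2. An intronic region 45.1 kb from the 5′ end (190125042-190125874) was at 29.6 in GFP- and higher, at 62.1, in GFP+. The highest-ranked intronic region, at 42.7 kb (190126847-190128997), was shared, at 91.7 in GFP- and 81.0 in GFP+. *Prox1* was thus higher in GFP+ by over 20 points at 2 distal regions and lower at 1, with no such difference at its starts. Cardiomyocyte genes also had start peaks in both lists, such as *Ryr2* (the cardiac ryanodine receptor) at 90.2 and 86.0 and *Tnnt2* (cardiac troponin T) at 99.4 and 94.3. *Actc1* differed most, at 99.9 and 88.5. The median difference over the 5 was -4.19 points, beside -0.814 over the 13643 protein-coding genes with a start peak. Among these 13643, 265 were higher in GFP+ by over 20 points and 1000 lower, which is 1.22% and 4.60% of all 21755 protein-coding genes. Most differences were thus under 20 points. The part of cardiomyocytes in the *Prox1* values was not tested.

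*Lyve1* (ENSMUSG00000030787.4, chr7:110850607-110863239, minus strand) encodes a hyaluronan receptor of lymphatic vessels. Its start was weakly open in both lists, at rank 36.8 in GFP- (401 bp) and 25.8 in GFP+ (364 bp). An intronic peak 3.06 kb from the 5′ end (110859906-110860299) was found only in GFP+, at rank 21.0, and a peak 31.0 kb upstream (110893934-110894465), nearer to the start of *Mrvi1*, also only in GFP+, at 26.1. A further peak 28.7 kb upstream (110891494-110891997) was GFP- only, at 46.8. The locus held 17 GFP- and 14 GFP+ peaks, but most of its flanking peaks lay nearer to the start of *Rnf141* or *Mrvi1*, and by nearest start only 3 peaks of each list belonged to *Lyve1*. None of 6 macrophage genes (*Csf1r*, *Mrc1*, *Cd163*, *F13a1*, *Adgre1* and *Ptprc*) had a start peak in either list. Of all protein-coding genes, 37.3% had none. The part of macrophages in the *Lyve1* values was not tested.

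*Pdpn* (ENSMUSG00000028583.14, chr4:143267431-143299564, minus strand) encodes podoplanin, a membrane glycoprotein of lymphatic endothelium and of several stromal cells. It had no GFP+ peak anywhere in its body. The GFP- list held its start peak (143298931-143299665, 735 bp) at rank 37.0 and 3 intronic peaks, at 68.5 (143278399-143278879), 65.4 and 47.1, all 4 GFP- only. In the flanks, the 2 GFP+ peaks of the locus were shared and lay nearer to *Lrrc38*, and one of them (143335062-143335375) ranked 5.24 in GFP- against 36.7 in GFP+. Of 6 fibroblast genes, 3 were also lower in GFP+ by over 20 points at their starts (against 4.60% of all genes), all with no GFP+ start peak. *Tcf21*, a transcription factor of cardiac fibroblasts, went from 83.8 to 0, *Dcn* (decorin) from 66.1 to 0 and *Dpt* (dermatopontin) from 51.5 to 0, while *Col1a1* and *Pdgfra* kept ranks of 80.7 and 87.0 in GFP+ and *Lum* had no start peak in either list. Of 5 pericyte genes, 2 were lower by over 20 points, *Pdgfrb* (a receptor of platelet-derived growth factor) going from 83.0 to 0 and *Kcnj8* (a potassium channel) from 83.4 to 49.1. *Rgs5* went from 16.2 to 0, while *Cspg4* (85.6 in GFP-) and *Abcc9* (79.2 in GFP-) kept ranks of 76.1 and 70.0 in GFP+. Of 4 epicardial genes, *Wt1* went from 61.8 to 83.0 and *Upk3b*, *Upk1b* and *Msln* had no start peak. The part of such cells in the *Pdpn* difference was not tested.

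*Reln* (ENSMUSG00000042453.14, chr5:21884454-22344702, minus strand) encodes reelin, a secreted glycoprotein that lymphatic endothelial cells release. It is the longest of the 8 genes, at 460 kb, with 10 annotated starts. The GFP+ list held a wide start peak of 893 bp (22344360-22345252) at rank 31.4, covering the CpG-rich stretch printed above, with a low summit (-log10 p of 3.68). A second GFP+ only peak lay in an intron 42.3 kb from the 5′ end (22302268-22302588) at rank 51.0, above the start peak. Of the 3 shared regions, all intronic, the highest was at 58.3 in GFP- and 62.9 in GFP+. The GFP- only peak, also in an intron, ranked 4.68. Neither flank held a peak in either list, so that the locus had 0.714 GFP- and 0.892 GFP+ peaks per 100 kb, beside medians of 4.63 and 3.86 over all protein-coding genes.

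*Mmrn1* (ENSMUSG00000054641.10, chr6:60924976-60989378, plus strand) encodes multimerin 1, a secreted protein of platelets and endothelium. None of its 3 starts had a peak in either list. The GFP+ list held an intronic peak of 170 bp (60950538-60950707) at rank 26.1, 6.15 kb from the nearest start and absent from the GFP- list. The other region of the locus lay downstream, 109 kb from the 5′ end, and was shared, at 34.1 in GFP- and 35.4 in GFP+.

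*Nfatc1* (ENSMUSG00000033016.16, chr18:80606205-80713071, minus strand) had the largest GFP- start peak of the 8 genes. This peak (80712193-80715815, 3623 bp) ranked 99.6 in GFP-, at position 316 of that list. In its place the GFP+ list held separate peaks at the 5′ end, at 91.3 over the start (80712138-80714048) and 96.3 upstream (80714204-80715921). At the next start inward, 4898 bp from the 5′ end, the ranks were 92.4 and 93.0. At the start of a short transcript near the 3′ end (80608299-80608918) the rank was 26.6 in GFP- against 63.6 in GFP+. The locus held 18 GFP+ and 16 GFP- peaks, but 2 of the GFP- peaks (80616921-80617965 and the one at the 5′ end) each overlapped 2 GFP+ peaks, and after merging it had 9 shared, 7 GFP+ only and 7 GFP- only regions. Of the 18 GFP+ peaks, 7 (38.9%, Wilson 95% interval 20.3 to 61.4%) were found only in GFP+, beside 13.4% of all GFP+ peaks, and 6 of these 7 lay in introns. The highest of the intronic ones ranked 43.7 (80633482-80633883) and 30.0 (80628890-80629321). The 7 GFP- only peaks, of 16 (43.8%, 23.1 to 66.8%, beside 30.3% of all GFP- peaks), included intronic peaks at 68.4 (80660420-80660983) and 42.6 (80637014-80637764).

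*Nr2f2* (ENSMUSG00000030551.14, chr7:70351944-70366735, minus strand), which encodes the venous transcription factor COUP-TFII, had nearly equal start peaks, at 98.0 (2656 bp) in GFP- and 97.3 (2612 bp) in GFP+. These covered 3 of its 6 starts, and the most 5′ start had no peak in either list. Its flanking regions were mostly shared, at 80.6 and 76.6 for one 43.4 kb upstream and at 85.5 and 83.1 for one downstream. A downstream region (70350460-70351676) was lower in GFP+, at 14.7 against 80.0 in GFP-, and so was an intronic one (70364767-70365648), at 23.4 against 55.7. The GFP+ only peak, 3.25 kb upstream, ranked 8.48. No region of *Nr2f2* was higher in GFP+ by over 20 points.

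*Cgnl1* (ENSMUSG00000032232.14, chr9:71626509-71771602, minus strand) encodes cingulin-like 1, or paracingulin, a protein of cell junctions. Its start peak ranked 87.1 (1046 bp) in GFP- and 78.2 (988 bp) in GFP+. The locus had the highest peak counts of the 8, 29 GFP- and 24 GFP+ peaks, though per 100 kb *Lyve1* had more (15.1 and 12.4, against 11.8 and 9.79). The GFP- list had 9 peaks of its own, 7 of them among its 15 intronic peaks, led by 68.2 (71660363-71661001) and 66.2 (71676896-71677672). The GFP+ list had 4 of its own, 2 downstream peaks nearer to *Myzap*, at 54.8 (71606495-71607225) and 27.8, and 2 intronic ones at 22.7 and 1.02. Shared intronic regions moved both ways, one from 72.1 in GFP- to 20.8 in GFP+ (71746413-71746904) and others from 23.9 to 48.1 (71667724-71667984) and from 5.66 to 31.7 (71694268-71694580).

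**Figure D2:**
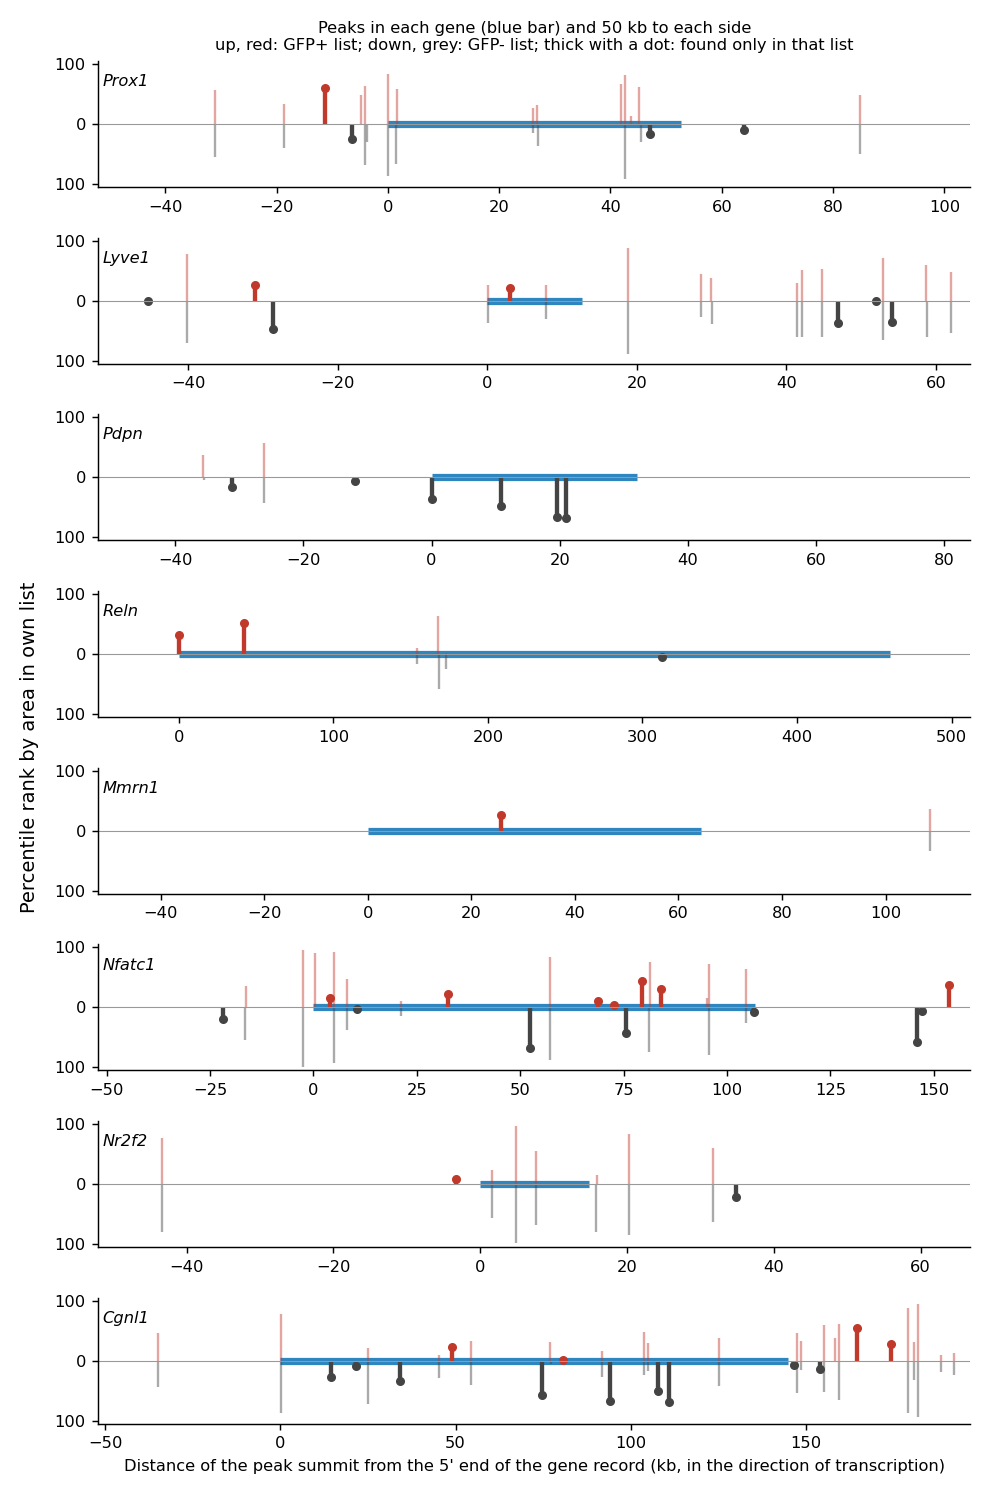
Peaks of each gene and 50 kb to each side, by distance of the summit from the 5′ end of the gene record (x axis, kb, in the direction of transcription) and percentile rank by area in the own list (y axis, GFP+ upward in red, GFP- downward in grey), with thick lines and dots for peaks found only in that list and a blue bar for the gene. The body of Pdpn has 4 GFP- only lines and no GFP+ line, the GFP+ only lines of Reln stand at its start and 42.3 kb inside, and Nfatc1 and Cgnl1 carry lines of both kinds along their introns.

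Over all 8 loci, 18 of 87 GFP+ peaks were found only in GFP+ (20.7%, Wilson 95% interval 13.5 to 30.4%), beside 13.4% of all GFP+ peaks. Of 97 GFP- peaks, 32 were found only in GFP- (33.0%, 24.4 to 42.8%), beside 30.3% of all GFP- peaks. Intervals cover counting error only, since the peaks of a locus share their sample, and that of the GFP+ share began just above the value for the whole list. The GFP+ share moved with the settings, to 32.2% where shared meant overlap of 50% of both peaks (26.3% of all GFP+ peaks) and to 8.57% of 35 peaks of at least the median area (2.97% of all). Of the 18, 11 lay in introns, 6 in flanks and 1 at a start. *Nfatc1* held 7 of the 18, from 18 GFP+ peaks, and *Cgnl1* 4, from 24, while no other locus held more than 2. The pooled share thus leaned on *Nfatc1*, and a share without it was not computed. The 5 lymphatic genes had 6 of 37 (16.2%, 7.65 to 31.1%) and the 3 endocardial and venous genes 12 of 50 (24.0%, 14.3 to 37.4%), with overlapping intervals. At least 1 GFP+ only peak was found at 7 of the 8 loci, all but *Pdpn*, where 39.8% of all protein-coding genes had one, and at least 1 GFP- only peak at 7 of 8, all but *Mmrn1*, against 61.3% of all genes. The loci were longer (median 159 kb) than those of all genes (117 kb), which leaves more room for a peak.

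**Figure D3:**
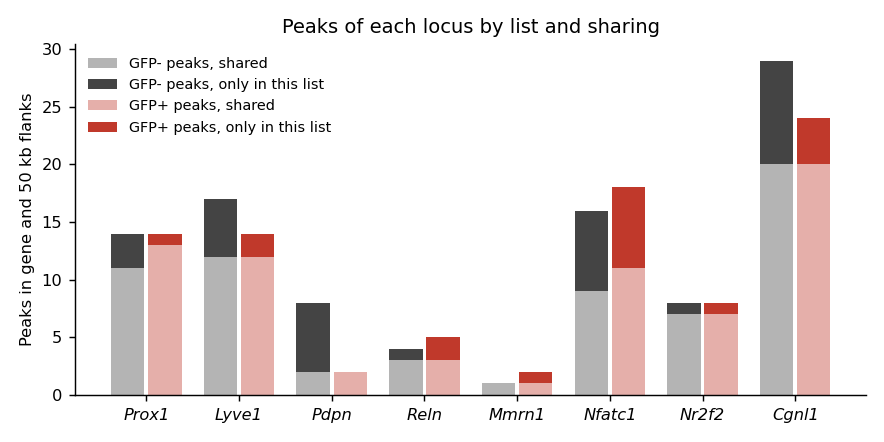
Number of peaks (y axis) in each gene and its 50 kb flanks (x axis), with GFP- bars in grey and GFP+ bars in red, the dark part of each bar counting peaks found only in that list. The counts run from 1 and 2 at Mmrn1 to 29 and 24 at Cgnl1, and Nfatc1 has the most GFP+ only peaks, 7.

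Overlapping peaks of the lists were then merged into regions, each with its rank in GFP- and GFP+. The 8 loci held 114 regions, of which 64 had a peak in both lists. Of these 114, 19 were higher in GFP+ by over 20 points (16.7%, against 7.63% of all 86649 regions) and 23 were lower (20.2%, against 23.8%). The median difference was -4.30 points, beside -3.90 over all regions. By area, the share higher in GFP+ was thus above that of all regions, while the median was close to it. *Cgnl1* with 6 and *Nfatc1* with 5 made up most of the 19, followed by *Prox1*, *Lyve1* and *Reln* with 2 each. *Pdpn* and *Mmrn1* had 1 each and *Nr2f2* 0. When a region was counted only where its nearest start was that of the member, 15 of 87 were higher and 20 lower. Ranked by the -log10 p of the summit, 14 of the 114 were higher and 28 lower, and by area per bp 14 and 25. The shares of all regions are not given for these measures. The excess over all regions is therefore stated for area alone, and whether it holds by the other measures was not tested.

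**Figure D4:**
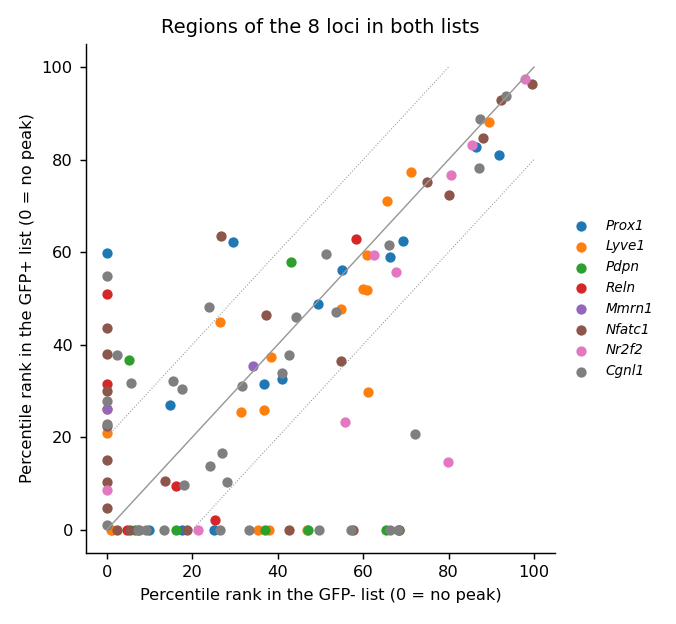
Percentile rank by area of each of the 114 regions of the 8 loci in the GFP- list (x axis) and in the GFP+ list (y axis), coloured by gene, with 0 for no peak, a solid line for equal ranks and dotted lines at a difference of 20 points. Regions ranked above 85 in either list lie near the solid line, and most of those beyond the dotted lines lie on an axis, absent from one list.

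Other genes of the same cell types, from lists named by cell type, gave a wider view of the starts. Of 8 other lymphatic genes, 6 had a start peak in each list. By over 20 points, 2 were higher in GFP+ and 0 lower, against 1.22% and 4.60% of all protein-coding genes. The median difference over the 6 with a start peak was 3.78 points. *Sox18*, a transcription factor that acts upstream of *Prox1*, went from 21.6 in GFP- to 79.7 in GFP+, and *Flt4*, the receptor of the lymphatic growth factor VEGF-C, from 58.8 to 83.3. *Nrp2*, a co-receptor of FLT4, was at 88.6 and 89.2, *Itga9* (an integrin of lymphatic valves) at 87.4 and 86.2, *Foxc2* (a transcription factor of the same valves) at 81.6 and 71.6, and *Tbx1* at 10.7 and 17.7. *Ccl21a*, a chemokine of lymphatic vessels, and *Ackr2*, a chemokine-scavenging receptor, had no start peak. *Sox18* and *Flt4* are also active in blood endothelium, and the part of lymphatic nuclei in these values was not tested.

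Of 7 other endocardial genes, 4 had a start peak in each list. *Plvap*, a protein of endothelial diaphragms, went from 0 to 47.9 and *Cdh11*, a cadherin also of mesenchymal cells, from 70.5 to 0. *Npr3*, a natriuretic peptide receptor of the endocardium, was at 62.6 and 66.1, *Tmem108* at 74.8 and 74.0 and *Vwf* (von Willebrand factor) at 71.2 and 69.2, while *Cytl1* and *Hapln1* had no start peak. The median difference over the 5 of these genes with a start peak in either list was -0.784 points. For the 12 pan-endothelial genes it was 51.6 points, with 9 higher and 1 lower, for instance *Cldn5* (claudin 5) from 0 to 87.9, *Sox17* (an arterial transcription factor) from 0 to 91.3 and, in the other direction, *Tek* (TIE2) from 81.1 to 54.1. Beside these 9 of 12, 1 of the 8 members was higher in GFP+ by over 20 points at its start. Over all protein-coding genes, 1.22% were higher and 4.60% lower by as much. The difference between the gene lists was not tested.

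**Figure D5:**
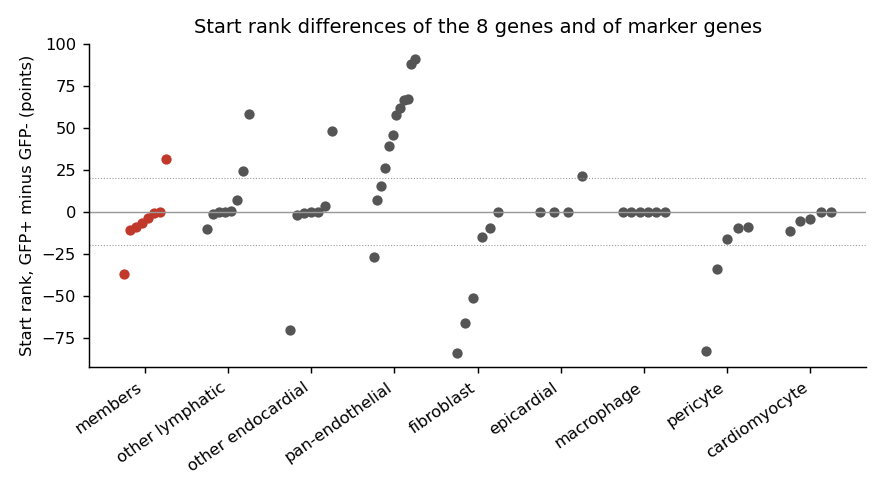
Start rank in GFP+ minus that in GFP- (y axis, points) for each gene of the lists (x axis), members in red and other lists in grey, with dotted lines at 20 points and 0 also for genes without a start peak. The pan-endothelial genes reach from -27.0 to 91.3, with 9 of 12 above the upper line, and 6 of the 8 members lie between the lines.

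The motif words were counted in 200 bp around the summits of all peaks. The ETS word, CAGGAA, was in 11 of the 18 GFP+ only peaks of the loci (61.1%, Wilson 95% interval 38.6 to 79.7%), beside 43.4% of all GFP+ only peaks and 28.7% of all GFP+ peaks, and the interval includes the first of these shares. It was in 6 of 7 such peaks at *Nfatc1*, 3 of 4 at *Cgnl1* and 2 of 2 at *Lyve1*, and in none of the 5 at *Prox1*, *Reln*, *Mmrn1* and *Nr2f2*. Some peaks with the word lay nearer to other genes, at *Cgnl1* those at 71596814-71597199 and 71606495-71607225 (*Myzap*) and at *Lyve1* that at 110893934-110894465 (*Mrvi1*). ETS factors are a family with many members in all endothelial cells. The SOX word was in 0 of 18, where 5.86% of all GFP+ only peaks had it. In the 32 GFP- only peaks the E-box CAGCTG was in 12 (37.5%, 22.9 to 54.7%), beside 28.6% of all GFP- only peaks, and the NFAT word in 11 (34.4%, 20.4 to 51.7%), beside 22.8%. Both intervals include the share of the whole class. Among the 18 GFP+ only peaks the E-box was in 1, beside 16.3% of all GFP+ only peaks. These shares depended on the window. In 400 bp the E-box was in 5 of the 18 (27.8%), beside 26.3% of all GFP+ only peaks, and the ETS word in 11 (61.1%), beside 58.4%.

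The calls at *Pdpn* and *Reln* depended on the measure of rank. Ranked by the -log10 p of the summit, *Pdpn* differed by -7.25 and *Reln* by 5.27 points. By area per bp they differed by -5.79 and 1.43 points, all under the limit of 20. The presence of each peak in a single list does not depend on rank, but it does depend on the limits of the peak calling. Both summits were low, with a -log10 p of 3.77 at *Pdpn* in GFP- and 3.68 at *Reln* in GFP+. The same measures gave differences past the limit at *Lyve1* (-23.0 by summit) and *Cgnl1* (-25.4 by area per bp).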

How the data were processed

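ATAC-Seq libraries of GFP- and GFP+ heart nuclei, 2 of each, were grouped by their labels. Before deposit, the authors used fastp for trimming, bowtie2 for mapping to mm10, samtools for a quality filter and Picard against duplicates. After downsampling, Genrich in ATAC mode called 1 list per population on both replicates together, without mitochondrial reads and blacklisted regions. The submitters' processing notes name Bowtie2 2.3.5.1, SAMtools 1.19 and CASAVA 1.4. The area deposited for a peak is its summed signal. The authors' score column is capped at 1000 and was not used for ranking, since 83.9% of GFP- and 82.0% of GFP+ peaks reach the cap. A -log10 p-value of each summit was also deposited. Read counts and the depth of each library are not analysed here. Calling both replicates together hides the spread between them, and downsampling evens depth but not how strongly reads gather in peaks.

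From the lists, percentile ranks, overlaps (at least 1 bp), start peaks (+/- 250 bp of any annotated start) and loci (gene with 50 kb flanks) were computed with Python 3.11.15, pysam 0.24.0, scipy 1.17.1, pandas 2.3.3 and numpy 2.4.6, with plots from matplotlib 3.10.9. A peak off a start was placed by its summit. Genes came from GENCODE M21 on GRCm38, and promoter sequences from RefSeq (GRCm38.p6), where 6 of the 8 genes matched and *Lyve1* and *Nfatc1* had no entry. The overlap, merging and start-rank steps were tested on simulated data, and the motif search was not part of that test. Named genes are the 8 members, the fixed lists and the nearest genes of flank peaks. The members, lists and motif words were chosen with earlier results of these data known. Alternatives changed the rank measure, start window, start definition, overlap, area minimum, flank length, assignment of peaks and motif window.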

Additional observations from a re-analysis of the deposited data

How the results depend on the processing

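No paired analysis was possible because each list was called from both replicates together, and for the same reason no replicate could be left out. Of 140 values under an alternative setting, 24 moved past their limit, with counts compared by size alone. The count of members lower in GFP+ at the start stayed at 1, but the gene was *Pdpn* by area, *Lyve1* by summit p-value and *Cgnl1* by area per bp. Ranking by the p-value of the summit or by area per bp left 0 members higher in GFP+ at the start, in place of 1. By area per bp, 1 other lymphatic gene was lower in GFP+, 0 epicardial genes were higher and 1 cardiomyocyte gene was higher. With only the 5′ end of each gene record, 5 fibroblast genes were lower and 2 other endocardial genes higher. With peaks of at least the median area, 7 of 41 GFP- peaks (17.1%) and 3 of 35 GFP+ peaks (8.57%) of the loci were found in a single list, beside 13.6% and 2.97% of all such peaks. With 50% overlap of both peaks, 28 of 87 GFP+ peaks (32.2%) were GFP+ only. Flanks of 20 kb gave 23.1% and assignment by nearest start 22.7%. With windows of 400 bp the ETS word was in 54.0% of the GFP+ and 43.3% of the GFP- peaks of the loci, beside 44.8% and 43.1% of all peaks. The causes were not tested. The lists hold no read counts, so a peak missing from a list was not detected under that calling and is not shown to be closed chromatin.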

Other observations

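Over the pair of start ranks in the 2 lists, the protein-coding genes nearest to *Pdpn* by Euclidean distance were *Tmem163* (37.2 in GFP- and 0 in GFP+, at 0.188 points) and *Slc47a2* (37.2 and 0, at 0.231 points). Those nearest to *Reln* were *Slc1a1* (0 in GFP- and 31.6 in GFP+, at 0.217 points) and *Piezo2* (0 and 30.9, at 0.455 points). With 2 values per gene, such likeness is a description of rank alone.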
